A study of Mus musculus with 2 samples.

Results

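The small leucine-rich proteoglycans (SLRPs) of primary perivascular cells (PCs) of the mouse aorta are described here: decorin (Dcn), biglycan (Bgn), asporin (Aspn), lumican (Lum), fibromodulin (Fmod), Prelp, osteomodulin (Omd), keratocan (Kera), osteoglycin (Ogn) and epiphycan (Epyc). These 10 genes were chosen by name, among 20211 gene symbols in the expression tables, and each stood on a single row. RNA was sequenced from 1 library of wild-type (WT) PCs and from 1 library of Kai1 knockout (Kai1-/-) PCs, both of C57BL/6 background and both grown in DMEM. The labels give 10% fetal bovine serum for both cultures, whereas the study's culture methods give a higher share for these cells. Kai1 is the tetraspanin also called Cd82. The study worked with adult C57BL/6 mice of either sex. The age and number of the animals behind each of these cultures and the cells in which the knockout acts were not given in the sources used here.

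SLRPs are secreted proteins of the extracellular matrix whose core is a run of leucine-rich repeats, closed at its N-terminal side by a cluster of cysteines. They bind to collagen fibrils and set how thick the fibrils grow and how far apart they lie. Decorin and biglycan carry chondroitin or dermatan sulfate chains, and fibromodulin and its closest relatives carry keratan sulfate or sulfated tyrosines instead. Several SLRPs also act outside the fibril. Decorin and biglycan bind TGF-beta, decorin is a ligand of receptor tyrosine kinases such as Egfr and Met, and free biglycan is read by the innate immune receptors Tlr2 and Tlr4. In arteries biglycan and decorin are matrix products of smooth muscle cells and adventitial fibroblasts.

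The family is divided into classes by the spacing of the N-terminal cysteines. The coding bases of that cluster are printed for all 10 members because the results below are ordered by class. They were read 5′ to 3′ along the coding strand from the transcripts of the GENCODE M1 annotation on the mouse build NCBI37 (mm9), each lies within a single exon, and the capitals mark the 4 cysteine codons. In class I the cysteine codons are separated by 3, 1 and 6 other codons.
Dcn (chr10:96946141-96946182, plus strand): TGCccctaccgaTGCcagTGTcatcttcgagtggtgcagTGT
Bgn (chrX:70736318-70736359, plus strand): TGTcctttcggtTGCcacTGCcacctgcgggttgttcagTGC
Aspn (chr13:49647234-49647275, plus strand): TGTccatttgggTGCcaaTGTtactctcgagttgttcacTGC
In class II the last gap is longer, with 3, 1 and 9 codons between the cysteines.
Lum (chr10:97030987-97031037, plus strand): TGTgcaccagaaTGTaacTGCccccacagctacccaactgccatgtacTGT
Fmod (chr1:135937026-135937076, plus strand): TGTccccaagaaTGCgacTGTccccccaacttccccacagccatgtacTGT
Prelp (chr1:135811728-135811778, minus strand): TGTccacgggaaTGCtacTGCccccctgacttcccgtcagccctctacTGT
Omd (chr13:49685028-49685078, plus strand): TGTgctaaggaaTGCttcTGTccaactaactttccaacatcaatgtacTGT
Kera (chr10:97071541-97071591, plus strand): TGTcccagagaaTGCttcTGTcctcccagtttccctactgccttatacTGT
In class III the first gap is shorter, with 2, 1 and 6 codons.
Ogn (chr13:49710935-49710973, plus strand): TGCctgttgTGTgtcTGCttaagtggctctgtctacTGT
Epyc (chr10:97137322-97137360, plus strand): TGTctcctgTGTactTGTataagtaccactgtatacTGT
Although the spacing is shared within a class, the bases are not. The longest run of identical bases shared by the longest transcripts of any pair of members was 17, between Dcn and Bgn, over 45 pairs. Near-identical copies that could exchange reads were thus not found within the family.

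The expression values were deposited as RPKM, read counts scaled to transcript length and to the mapped reads of the library, and can be set side by side between genes of a library. Bgn was by far the most abundant SLRP transcript of these cells, followed in WT PCs by Prelp, Fmod and Dcn, while Lum, Aspn, Kera and Epyc were at or near 0. In the Kai1-/- library Prelp and Fmod were several-fold lower, Bgn and Dcn were lower by less than 2-fold, and Omd was higher at a low level. With 1 library per genotype there is no replicate check and no test was possible, so each ratio compares these cultures only. Differences between mice, also in their sex, between cultures or between preparations are part of it.

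From the steps between low RPKM values, depth was estimated at roughly 29500000 reads for WT and 26700000 for Kai1-/- PCs. Reads per gene and the 95% intervals given below come from these estimates and cover counting error only. Log2 ratios were computed as Kai1-/- over WT with 0.1 added to both values, so that changes of low genes are understated. Counts were made over the 10068 genes whose RPKM averaged 1 or more across the libraries, called the genes kept. Of these, 786 (7.81%) were lower and 803 (7.98%) higher in Kai1-/- PCs by more than 2-fold, and the median log2 ratio was 0.08. The targeted gene, Cd82, stood at an RPKM of 12.8 in WT and 2.62 in Kai1-/- PCs, or a log2 ratio of -2.25. The RPKM of all genes summed to 884463 in WT and 1238193 in Kai1-/- PCs, so the ratios depend on the scaling. With both libraries scaled to Gapdh (RPKM 4238 and 5997), 1856 genes were lower and 278 higher. None of the 72 ribosomal protein genes looked at was listed at 0.

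Of the 10 SLRPs, 8 were above 0 in at least 1 library and 5 passed the filter on mean RPKM. These 5 were Bgn, Prelp, Fmod, Dcn and Omd, and 4 of them had a log2 ratio below 0. More than 2-fold lower were 2 of the 5, Prelp and Fmod, against 7.81% of all genes kept, and more than 2-fold higher was 1, Omd, against 7.98%. The median log2 ratio of the 5 was -0.67. Since a gene near the filter passes more easily when it is high in one of the libraries, these counts describe the 5 genes and not the whole family. In a bulk culture, fewer cells of a type that makes a transcript and less of it per cell cannot be told apart.

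**Figure D1:**
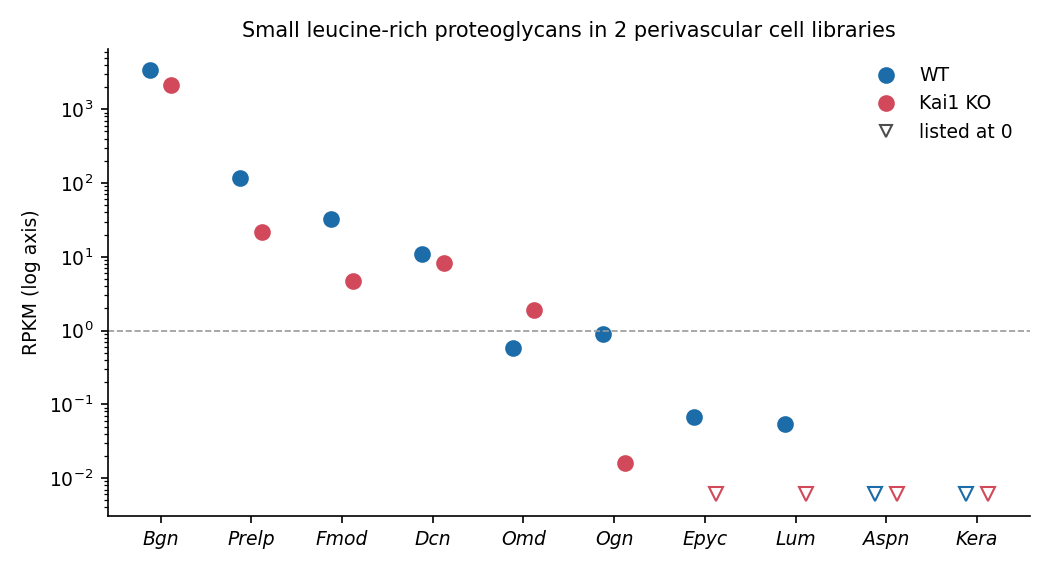
RPKM of each small leucine-rich proteoglycan (vertical log axis) in the WT library (blue) and the Kai1 KO library (red), 1 library each, with open triangles for values listed at 0 and a dashed line at an RPKM of 1. Bgn stands at 3351 and 2111, above all other members, Prelp and Fmod are separated most among the abundant members, and Aspn and Kera are at 0 in both libraries.

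In class I, the transcript of Bgn, on chromosome X from 70728941 to 70741272, reached an RPKM of 3351 in WT and 2111 in Kai1-/- PCs. It ranked 53rd among all genes in the WT library and 96th in the Kai1-/- library. The Kai1-/- value was 63.0% of WT, a log2 ratio of -0.67, and 14.1% of the genes kept had a lower ratio. About 215032 and 122564 reads stood behind these values, so the counting interval of the ratio was narrow, from 0.626 to 0.634. This interval says nothing about the spread between cultures. Bgn did not pass 2-fold as deposited, but with both libraries scaled to Gapdh its log2 ratio was -1.17, past 2-fold.

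Because Bgn is X-linked, Y-linked genes are given beside it. Ddx3y had an RPKM of 6.56, Eif2s3y of 3.17, Kdm5d of 0.941 and Uty of 0.480 in WT PCs, and all 4 were listed at 0 in Kai1-/- PCs. Y-linked transcripts were thus seen in the WT culture and not in the Kai1-/- culture. A difference in sex between the cultures cannot be told apart from genotype in any ratio given here. Its part in the ratio of Bgn was not tested. Of the genes beside Bgn on the X chromosome, Haus7, 24.6 kb to its left, had RPKM values of 44.0 and 68.6 in WT and Kai1-/- PCs, or a log2 ratio of 0.64. Atp2b3, 7.2 kb to its right, was at or near 0 in both libraries.

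Decorin is the class I member known to limit fibril growth, and its gene spans 96942245 to 96980777 of chromosome 10. The RPKM of Dcn was 10.8 in WT and 8.22 in Kai1-/- PCs, about 496 and 342 reads. The fold of Kai1-/- over WT was 0.762, with a counting interval from 0.663 to 0.878, and 23.0% of the genes kept had a lower log2 ratio than its -0.39. Dcn thus stood far below Bgn in both cultures. Asporin, the third class I member, binds collagen at the same region as decorin and lacks attachment sites for the glycosaminoglycan chain. Aspn was listed at 0 in both libraries, where 3 reads would have given RPKM values of 0.0474 in WT and 0.0524 in Kai1-/- PCs.

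In class II, Prelp and Fmod showed the lowest ratios of the SLRPs that passed the filter. Prelp encodes a protein with a basic N-terminal stretch that binds heparan sulfate and can link basement membranes to the fibrillar matrix. Its RPKM was 118 in WT and 21.4 in Kai1-/- PCs, about 11867 and 1945 reads. The fold of Kai1-/- over WT was 0.181, with a counting interval from 0.173 to 0.190, or 5.52-fold lower. Only 1.48% of the genes kept had a lower log2 ratio than its -2.46, and Prelp moved from rank 763 among all genes in WT PCs to rank 2996 in Kai1-/- PCs.

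Fmod encodes fibromodulin, which binds collagen fibrils early in their assembly and also binds TGF-beta. Its RPKM was 32.8 in WT and 4.72 in Kai1-/- PCs, about 2819 and 367 reads. The fold was 0.144, with a counting interval from 0.129 to 0.161, or 6.95-fold lower. Its log2 ratio of -2.77 was undercut by 1.12% of the genes kept, and its rank went from 2094 to 6612. Prelp and Fmod were lower under each of the scalings computed, and Gapdh scaling gave -2.96 for Prelp and -3.26 for Fmod.

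Omd, a keratan sulfate proteoglycan known from bone, was the only SLRP with a higher value in Kai1-/- PCs. Its RPKM was 0.588 in WT and 1.88 in Kai1-/- PCs, or about 23.5 and 68.1 reads. The fold was 3.20, with a wide counting interval from 1.94 to 5.22, and the log2 ratio was 1.53. With a pseudocount of 1 RPKM it was 0.86 and no longer past 2-fold. Omd passed the filter only through its value in the Kai1-/- library.

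The remaining class II members, lumican and keratocan, are the keratan sulfate proteoglycans of the cornea, and lumican is also common in other connective tissues. Lum had an RPKM of 0.0541 in WT PCs, about 3.0 reads, and was listed at 0 in Kai1-/- PCs, where 3 reads would have given 0.0600. Kera was listed at 0 in both libraries, where 3 reads would have given 0.0576 and 0.0637. A difference of Lum or Kera between the cultures was not detectable at this depth.

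In class III, the RPKM of Ogn was 0.895 in WT and 0.0160 in Kai1-/- PCs. Osteoglycin, also called mimecan, takes part in collagen fibril assembly. The values stood for about 61.7 reads and 1.0 read, which gave a fold of 0.0179 with a counting interval from 0.0004 to 0.103. The log2 ratio of -3.10 rests on the pseudocount, since it was -0.90 with 1 RPKM added and -5.12 with 0.01 added. With a mean RPKM of 0.455 Ogn was not among the genes kept. Epyc, a cartilage proteoglycan, had an RPKM of 0.0666 in WT PCs, about 4.6 reads, and was listed at 0 in Kai1-/- PCs, where 3 reads would have given 0.0481.

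**Figure D2:**
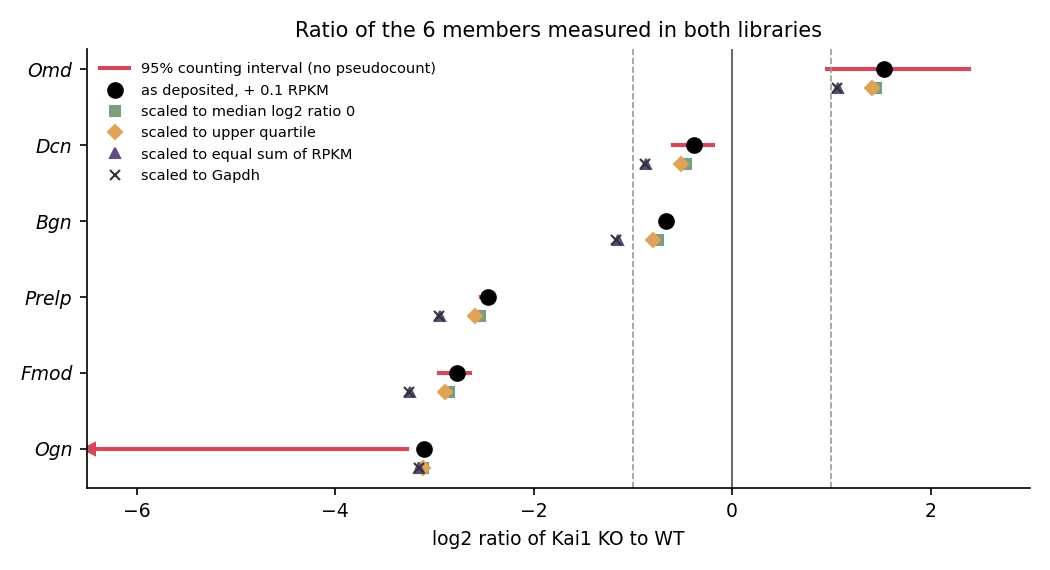
Log2 ratio of Kai1 KO to WT for the 6 members above 0 in both libraries, as deposited with 0.1 RPKM added (black) and under 4 other scalings (coloured), with the 95% counting interval from estimated reads without a pseudocount (red line, the arrow runs off the axis) and dashed lines at 2-fold. The black point of Ogn lies outside its interval because 0.1 RPKM was added, Prelp, Fmod and Ogn stay left of the 2-fold line under every scaling drawn, Bgn crosses the line when scaled to equal sum or Gapdh, and Omd stays above 0.

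The order of the SLRPs within a library therefore differed. In WT PCs the order was Bgn, Prelp, Fmod, Dcn, Ogn and Omd, followed by Epyc and Lum. In Kai1-/- PCs Dcn stood above Fmod and Omd above Ogn. Bgn was 28.4-fold above Prelp in WT PCs and 98.9-fold above it in Kai1-/- PCs. Neighbours in this order cannot be compared beyond counting error, since no spread between samples was measured. The 10 RPKM values summed to 3515 in WT and 2147 in Kai1-/- PCs, or 61.1% of WT. Bgn made up 95.4% of the sum in WT and 98.3% in Kai1-/- PCs, so the sum mostly follows Bgn.

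Without Bgn, the RPKM of the other 9 genes summed to 163 and 36.2, or 22.2% of WT. Prelp held 72.3% of that smaller sum in WT and 59.0% in Kai1-/- PCs. The share of Fmod was 20.1% in WT and 13.0% in Kai1-/- PCs. Dcn, which differed less between the cultures, had a share of 6.62% in WT and 22.7% in Kai1-/- PCs. Omd had a share of 0.361% in WT and 5.20% in Kai1-/- PCs. The minor SLRP transcripts were thus mostly Prelp and Fmod in WT PCs and mostly Prelp and Dcn in Kai1-/- PCs.

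**Figure D3:**
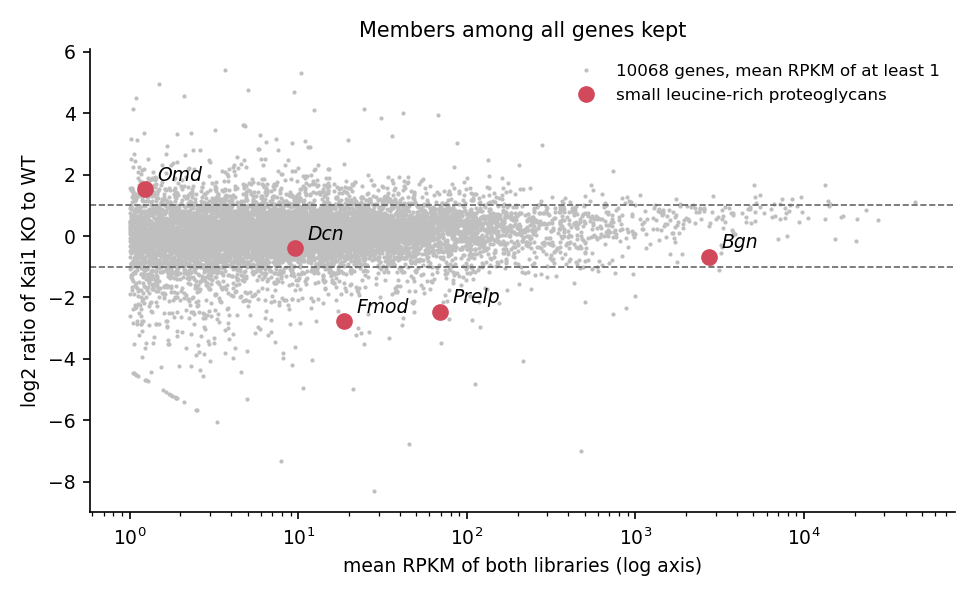
Log2 ratio of Kai1 KO to WT (vertical axis) against mean RPKM of both libraries (horizontal log axis) for the 10068 genes kept (grey) and the 5 small leucine-rich proteoglycans among them (red), with dashed lines at 2-fold. Fmod and Prelp lie below the lower line, with 1.12% and 1.48% of the genes kept at a lower ratio, Dcn and Bgn lie between the lines, and Omd lies near the left end where the scatter is wide.

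Most SLRP genes lie in clusters in the mouse genome, and their values are therefore also given by position on NCBI37. On chromosome 1, Prelp (135806881 to 135817991, minus strand) and Fmod (135933831 to 135944854, plus strand) are 115.8 kb apart. Opticin (Optc), a class III relative best known from the vitreous of the eye, lies 2304 bases from Prelp on the same strand, from 135793773 to 135804576. Its RPKM was 2.22 in WT and 0.382 in Kai1-/- PCs, about 110 and 17.2 reads. The fold was 0.172, with a counting interval from 0.0960 to 0.286, and the log2 ratio was -2.26. Optc passed the filter on mean RPKM only through its value in the WT library, which favours a lower ratio. The values of all 3 genes of the cluster on chromosome 1 were lower in Kai1-/- PCs.

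The genes next to that cluster differed in direction. Atp2b4, a plasma membrane calcium pump 96.2 kb to the left, had RPKM values of 1.10 and 0.104 in WT and Kai1-/- PCs, or a log2 ratio of -2.55, with a mean below the filter. Btg2, 26.9 kb to the right, had values of 4.38 and 5.32, a log2 ratio of 0.28. An annotated transcript of the opposite strand, Gm15851, shares 350 exonic bases with Prelp. Whether the libraries kept strand was not given in the sources used here, so reads of these transcripts cannot be told apart there.

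On chromosome 10, Dcn, Lum (97028135 to 97035337), Kera (97069817 to 97076322) and Epyc (97106702 to 97145088) lie on the plus strand within 202.8 kb. Dcn alone was well above 0, and it was within 2-fold. The nearest annotated genes with a value on each side were Btg1, with RPKM values of 2.18 and 3.02, and Atp2b1, with 4.81 and 8.26, and both were within 2-fold. Gm10754, on the opposite strand, shares 315 exonic bases with Epyc.

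On chromosome 13, Ecm2 (49600179 to 49628158), Aspn (49639812 to 49662926), Omd (49678135 to 49687978) and Ogn (49703440 to 49719869) lie on the plus strand within 119.7 kb. The neighbours Omd and Ogn, 15.5 kb apart, differed in opposite directions. The whole cluster lies inside the gene of the centromere protein Cenpp, which runs on the opposite strand from 49559396 to 49748124 and shares 0 exonic bases with any of the 4 genes. Cenpp had RPKM values of 1.82 in WT and 4.83 in Kai1-/- PCs, or a log2 ratio of 1.36. Its part in the ratio of Omd, whose level was of the same order, was not tested. Beyond the cluster, Ippk had a log2 ratio of -0.09 and Nol8 of 0.93.

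**Figure D4:**
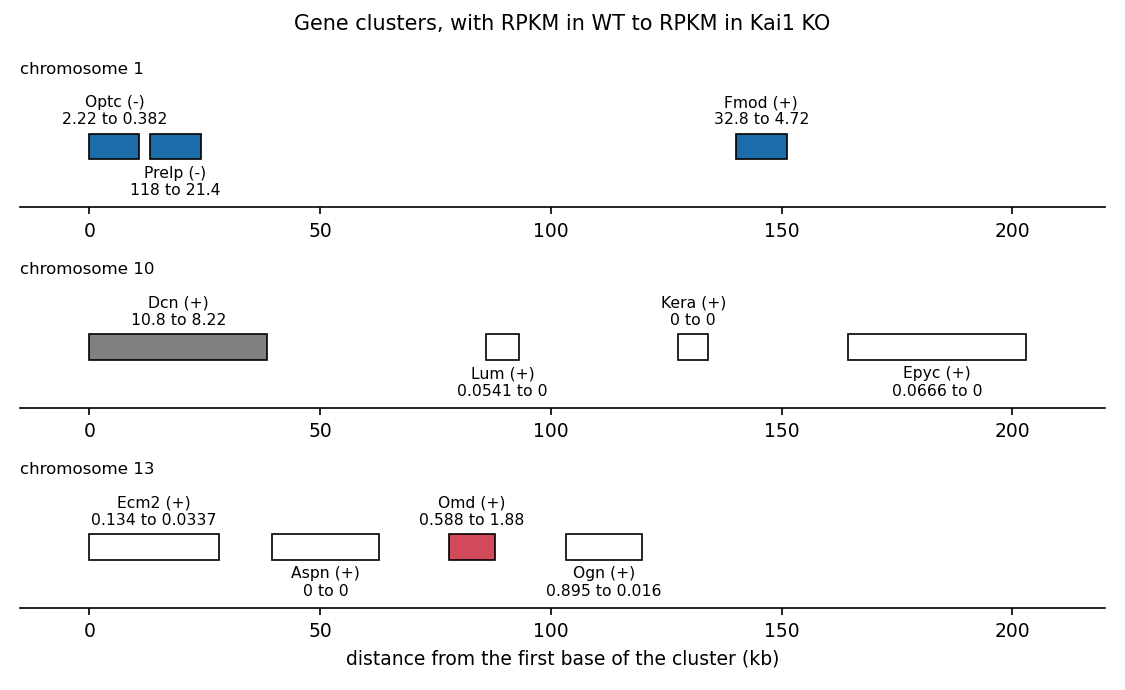
Position of the SLRP genes and their leucine-rich neighbours Optc and Ecm2 in the 3 clusters, as distance in kb from the first base of each cluster, with the strand and the RPKM in WT and in Kai1 KO. Blue boxes were more than 2-fold lower, the red box more than 2-fold higher, the grey box within 2-fold, and white boxes had a mean RPKM under 1. The 3 genes on chromosome 1 are all blue, Optc having passed the filter only through WT, whereas Omd and Ogn on chromosome 13 went from 0.588 to 1.88 and from 0.895 to 0.0160.

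The bases upstream of Fmod, Prelp and Bgn are shown because the first pair had the lowest ratios among the members that passed the filter and Bgn the highest level. They are the 250 bases before the start of each gene, from the RefSeq promoter table of build GRCm38.p6, which held 8 of the 10 SLRPs. Searched on both strands were the TATA box TATAAA, the GC box GGGCGG and the AP-1 motif TGANTCA, and matches are in capitals.
Fmod (chr1:134037004-134037253, plus strand): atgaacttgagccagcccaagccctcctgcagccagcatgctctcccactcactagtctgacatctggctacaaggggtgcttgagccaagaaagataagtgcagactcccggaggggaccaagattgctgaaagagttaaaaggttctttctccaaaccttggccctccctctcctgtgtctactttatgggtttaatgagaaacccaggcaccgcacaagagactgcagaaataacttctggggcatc
Prelp (chr1:133921402-133921651, minus strand): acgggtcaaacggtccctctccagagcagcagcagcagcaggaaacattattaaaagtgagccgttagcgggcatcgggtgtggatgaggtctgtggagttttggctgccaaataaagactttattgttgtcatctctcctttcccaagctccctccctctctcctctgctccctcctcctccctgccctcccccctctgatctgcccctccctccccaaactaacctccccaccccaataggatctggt
Bgn (chrX:73483351-73483600, plus strand): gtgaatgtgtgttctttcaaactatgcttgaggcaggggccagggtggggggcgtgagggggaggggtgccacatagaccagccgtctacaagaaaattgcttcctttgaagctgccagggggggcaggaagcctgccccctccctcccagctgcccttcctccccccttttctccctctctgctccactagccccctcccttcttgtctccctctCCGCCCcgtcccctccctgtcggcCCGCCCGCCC
No match was found in the windows of Fmod and Prelp. The window of Bgn held 3 GC boxes, which began 34, 10 and 6 bases before the start, and the last 2 overlap. Among 32851 promoters, 32.7% held a GC box, 12.4% a TATA box and 6.75% an AP-1 motif in the same window. The GC content was 51.2% for Fmod, 55.6% for Prelp and 64.4% for Bgn, beside a median of 52.4% over all promoters. Among the other members with an entry, Aspn held 2 TATA boxes, 207 and 178 bases before the start. Ogn held a stretch that matches the TATA box on both strands, 229 and 227 bases before the start, so that its 2 matches overlap. A match is a description of the letters only.

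The other leucine-rich matrix genes were next examined. Of 8 such genes, 3 were kept, of which 1 was more than 2-fold lower (Optc) and 0 were higher. The shares of all genes kept were 7.81% and 7.98%. The median log2 ratio of the 3 was -0.77. Tsukushi (Tsku), a secreted inhibitor of BMP signalling, had RPKM values of 18.0 in WT and 10.5 in Kai1-/- PCs, or a log2 ratio of -0.77, and was past 2-fold (-1.26) when scaled to Gapdh. Podocan-like 1 (Podnl1) had values of 2.66 and 4.22, a log2 ratio of 0.65. Podn stood at 1.06 and 0.492 and Chadl at 0.864 and 0.527. The values were 0.134 and 0.0337 for Ecm2, 0.0465 and 0.155 for Chad, and 0.0584 and 0.0109 for nyctalopin (Nyx). Tsku was thus the most abundant of the 8, below Fmod in WT PCs and above both Fmod and Dcn in Kai1-/- PCs.

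The glycosaminoglycan chains of SLRPs are built by enzymes that were fixed as separate lists. Of 22 genes of chondroitin and dermatan sulfate synthesis, 17 were kept. More than 2-fold lower were 6 and more than 2-fold higher was 1, beside 7.81% and 7.98% of all genes kept. The median log2 ratio of the 17 was -0.32, beside 0.08 over all genes kept. Where the mean RPKM was 5 or more, 2 were lower. Chst7, Csgalnact1 and Chst15, at 0.826, 0.670 and 0.700 in Kai1-/- PCs, were kept only through WT. The chondroitin sulfotransferases Chst7 (RPKM 4.28 in WT and 0.826 in Kai1-/- PCs), Chst11 (5.56 and 1.67) and Chst12 (45.0 and 19.8) had the lowest ratios, from -2.24 to -1.18. The chain polymerizing factors differed in direction. Chpf had RPKM values of 135 and 63.8, a log2 ratio of -1.08, whereas its relative Chpf2 had 40.9 and 227, a log2 ratio of 2.47. Of 5 genes of keratan sulfate synthesis, 2 were kept, 0 were lower and 1 was higher, with a median log2 ratio of 0.87. The galactosyltransferase B4galt4 (5.71 and 13.1) was more than 2-fold higher as deposited, with a log2 ratio of 1.18, but its ratio was 0.69 when scaled to Gapdh. The sulfotransferase Chst1 (10.6 and 15.6) was within 2-fold.

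Collagens to which SLRPs bind differed in both directions. All 13 genes of the list were kept, 5 were lower and 4 higher by more than 2-fold, beside 7.81% and 7.98% of all genes kept. The median log2 ratio of the 13 was -0.79. Scaled to Gapdh, 8 were lower and 3 higher, since Col5a2 (-1.41) and Col14a1 (-1.23) then passed 2-fold with Col1a1 and Col11a1 (0.71) no longer did. The type I chains Col1a1 (RPKM 924 in WT and 534 in Kai1-/- PCs) and Col1a2 (824 and 377) had log2 ratios of -0.79 and -1.13, and Gapdh scaling gave -1.29 for Col1a1. Col5a1 (123 and 42.8), whose product starts type I fibrils, had -1.52, and Col12a1 (10.9 and 4.12), a fibril-associated collagen, had -1.38. The 3 chains of collagen VI, a ligand of decorin and biglycan, did not move alike. Col6a1 (68.1 and 256) and Col6a2 (54.7 and 215) had log2 ratios of 1.91 and 1.97, whereas Col6a3 (16.8 and 5.57) had -1.58. Col2a1, the cartilage collagen, had values of 9.74 and 31.9, a log2 ratio of 1.70.

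Of 12 growth factors and receptors that SLRPs bind, 8 were kept. By more than 2-fold, 2 were lower and 0 higher, beside 7.81% and 7.98% of all genes kept. The median log2 ratio of the 8 was -0.53. Tgfb2 had RPKM values of 4.65 in WT and 1.33 in Kai1-/- PCs, or a log2 ratio of -1.73. Wisp1, a matricellular protein bound by decorin and biglycan, had values of 20.1 and 8.08, a log2 ratio of -1.30. The endocytic receptor Lrp1 was nearly level at 28.6 and 26.9, and Tgfb3 (24.7 and 12.6) stood just inside 2-fold with a log2 ratio of -0.96. Scaled to Gapdh, Tgfb3 was past 2-fold, at -1.46. The decorin receptors Egfr (4.08 and 7.91) and Met (1.43 and 2.89) differed in the other direction, just inside 2-fold, with log2 ratios of 0.94 and 0.97. Without the 0.1 added, the fold of Met was 2.02. Gapdh scaling gave smaller log2 ratios, 0.44 for Egfr and 0.49 for Met. Of the list, 1 gene was more than 2-fold higher with 0.01 in place of 0.1 added, 4 were lower when scaled to Gapdh or without the filter, and 1 was lower where the mean RPKM was 5 or more.

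Of 9 proteases that cut SLRPs, 6 were kept, 1 was more than 2-fold lower and 0 were higher, beside 7.81% and 7.98% of all genes kept, and the median log2 ratio was -0.75. Adamts5, an aggrecanase that also cuts biglycan and decorin, had RPKM values of 30.6 in WT and 10.4 in Kai1-/- PCs, or a log2 ratio of -1.55. The matrix metalloproteinases Mmp14 (138 and 83.4) and Mmp2 (68.0 and 39.6) had log2 ratios of -0.72 and -0.78. Scaled to Gapdh these were -1.22 and -1.28, that of Bmp1 (59.9 and 33.3) was -1.34, and 4 of the 6 proteases were lower. Without the filter 3 of the 9 were lower. Of 11 other chondroitin sulfate proteoglycans, 3 were kept, 0 were lower and 1 was higher, with a median log2 ratio of -0.04. That gene was versican (Vcan), the large hyaluronan-binding proteoglycan of the artery wall, with values of 7.15 and 19.5 and a log2 ratio of 1.44, or 0.94 when scaled to Gapdh. Cspg4, the pericyte proteoglycan NG2, had values of 15.4 and 8.27, a log2 ratio of -0.89, or -1.38 when scaled to Gapdh.

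**Figure D5:**
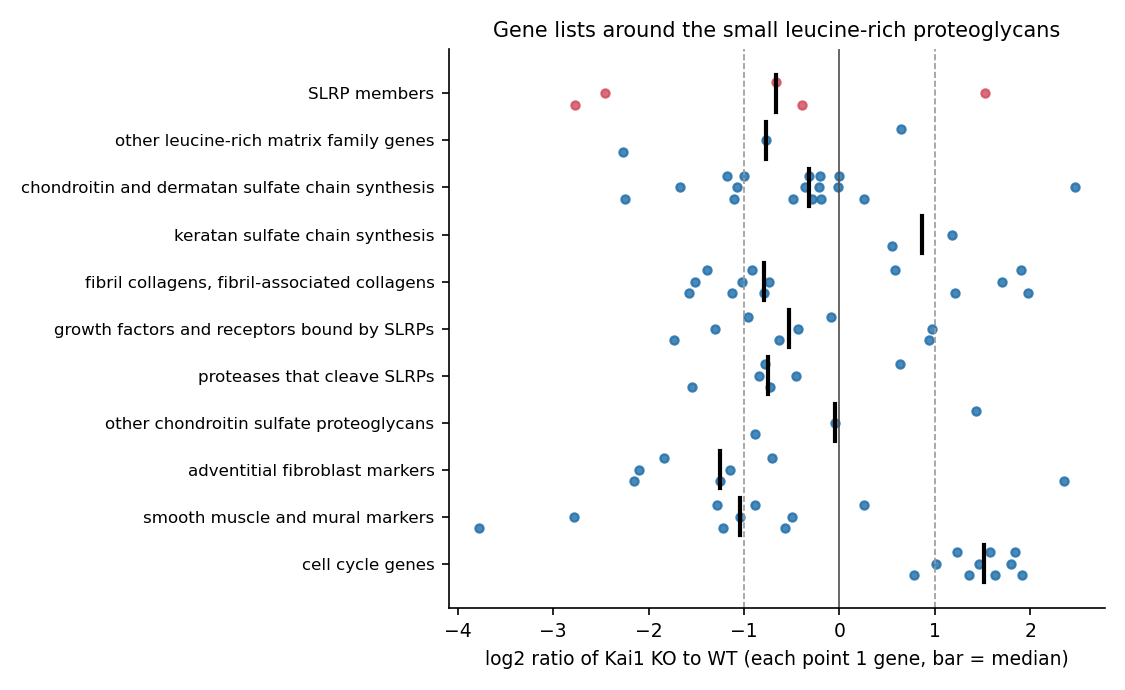
Log2 ratio of Kai1 KO to WT of each gene kept (points) and median (bar) for the SLRPs (red), the lists of the SLRP pathway and the marker lists with at least 5 genes kept (blue), with dashed lines at 2-fold. The medians run from -1.25 for adventitial fibroblast markers to 1.52 for cell cycle genes, and the collagens split into groups on both sides of 0.

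Markers of the cell types that make SLRPs were mostly lower as well. Of 14 smooth muscle and mural markers, 9 were kept. By more than 2-fold, 5 were lower and 0 higher, beside 7.81% and 7.98% of all genes kept. The median log2 ratio of the 9 was -1.04, and the summed RPKM of all 14 was 4699 in WT and 3028 in Kai1-/- PCs. Where the mean RPKM was 5 or more, 3 were lower. Among the lower genes, Myh11 (2.96 and 0.346) and Mcam (4.90 and 0.264) were kept only through WT, which favours a lower ratio. Without the filter 6 of the 14 were lower and 2 higher. Scaled to Gapdh, 7 of the 9 were lower and 0 higher, since Acta2 (-1.07) and Cspg4 (-1.38) then passed 2-fold. Acta2 (RPKM 3823 and 2580), Tagln (633 and 307) and Cnn1 (120 and 49.2), genes of the contractile apparatus, were the most abundant, and Pdgfrb stood at 44.7 and 31.6. The pericyte markers Rgs5 (0.0630 and 0.233), Kcnj8 (0 and 0.791) and Abcc9 (0.0411 and 0.0303) had RPKM values under 1 in both libraries. These defining markers were thus low in both cultures. Rgs5 (about 7.2 and 24.2 reads) and Kcnj8 (about 0 and 41.9 reads) were the 2 genes that were higher without the filter. Of 10 adventitial fibroblast markers, 7 were kept, 5 were lower and 1 (Cd34, 1.44 and 7.76) was higher, beside the same shares. The median log2 ratio of the 7 was -1.25, and the 10 summed to 1727 and 727. Among the 5 lower genes, Pdgfra (2.01 and 0.854), Pi16 (1.98 and 0.385) and Dpt (3.06 and 0.783) were kept only through WT, and where the mean RPKM was 5 or more 2 were lower and 0 higher. Ly6a (1354 and 569), Gsn (171 and 104) and the microfibril gene Mfap5 (194 and 43.6) led this list, and Tcf21 was listed at 0 in both libraries. Scaled to Gapdh, 6 of the 7 fibroblast markers were lower and 1 higher, since Gsn then stood at -1.21. The part of these markers in the ratios of Bgn, Prelp, Fmod and Dcn was not tested.

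The 10 endothelial markers, among them Pecam1, Tek and Erg, summed to 1.30 in WT PCs and were all listed at 0 in Kai1-/- PCs. Of 11 macrophage markers, 3 were kept, of which 2 were lower and 1 was higher. For this and the lists that follow, the shares of all genes kept were 7.81% lower and 7.98% higher. The median log2 ratio of the 3 macrophage markers was -1.57, and the 11 summed to 19.1 and 14.7. The median turned to 0.11 where a mean RPKM of 5 or more was asked for. Csf1r had values of 11.7 and 2.66, Cd14 of 1.98 and 10.3 and Lyz2 of 3.44 and 1.09, while C1qa and Emr1 were listed at 0 in both. Several SLRPs are marker genes of skeletal tissues, and the lists of these tissues were also read. Of 10 chondrocyte markers 2 were kept, 0 were lower and 1 was higher (Col2a1), Sox9 stood at 8.36 and 9.80 and Comp at 0.531 and 0.101, and Acan was listed at 0 in both libraries. Of 9 osteoblast markers, 8 had a value and 3 were kept, of which 2 were lower. These were Bglap (2.12 and 0.203) and Bglap2 (3.16 and 0.212), near-identical copies whose reads may be shared. Both were kept only through WT, which favours a lower ratio. Spp1 stood at 22.8 and 16.1, and Sp7, below the filter, differed in the other direction (0.130 and 0.467). Of 4 tenocyte markers 2 were kept, both within 2-fold, with values of 1.45 and 1.96 for Scx, 1.41 and 1.03 for Tnmd and 0.686 and 0.200 for Mkx. None of 8 keratinocyte markers was kept, and the highest were Cdh1 (0.593 and 0.391), Krt14 (0.0695 and 0.642) and Krt10 (0.179 and 0.0396).

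Cell cycle genes were higher in the Kai1-/- library as deposited. All 10 were kept, and 9 of them were more than 2-fold higher, against 7.98% of all genes kept. The median log2 ratio was 1.52, and the summed RPKM of the 10 was 155 in WT and 438 in Kai1-/- PCs. Ccnb1 (18.7 and 70.8), Cdk1 (23.7 and 85.5) and Pcna (38.2 and 77.1) were the most abundant, and Pcna, Mcm2, Top2a and Ccna2 were within 2-fold when scaled to Gapdh. The part of this difference between the cultures in the ratios of the SLRPs was not tested.

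The genes most like Bgn and Fmod in level were listed by the distance between their pairs of log2(RPKM + 0.1) values over the 2 libraries. Nearest to Bgn were Actb (RPKM 3691 in WT and 1926 in Kai1-/- PCs), Acta2 (3823 and 2580), Ftl1 (4264 and 2002), Timp1 (3518 and 2882) and Mt1 (3680 and 2887), at distances from 0.19 to 0.47. Actb, Acta2 and Ftl1 have near-identical relatives, as does Serpinb6c below, so that their values are uncertain. Nearest to Fmod were Dgcr8 (32.1 and 4.79), Serpinb6c (33.9 and 4.41), Prkar1b (28.9 and 5.25), Tbxa2r (40.3 and 4.95) and Ppp1r14a (39.8 and 4.22), at distances from 0.04 to 0.32. Only 2 libraries stand behind this likeness.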

How the data were processed

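RNA of WT and Kai1-/- PCs was sequenced, with 1 library per genotype. Per the study's methods and the submitters' processing notes, alignment by the authors was to mm9, with TopHat2 (2.0.9) over Bowtie, and genes were tested with Cuffdiff. The authors deposited RPKM values, one per gene and library, for 20462 rows. Neither depth nor strand was given in the sources used here.

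In the present computation, the 38 rows that carry no symbol were dropped, and symbols on several rows were averaged. Ratios of Kai1-/- to WT were taken after adding 0.1 to both RPKM values, on the log2 scale, and genes were kept where the 2 values averaged 1 or more. A gene counted as lower or higher when past 2-fold. RPKM holds no replicates here, so no p-value was computed. Reads per gene were estimated after the data were seen. Low RPKM values of genes with 1 transcript of over 800 bases, times the transcript's length minus 200 bases for the fragment, were fitted to whole multiples of 1 read, and 81.7% (WT) and 79.8% (Kai1-/-) of them lay within 0.15 of a whole read. Reads used the longest transcript and are approximate. Intervals are exact binomial, at 95%, and floors are 3 reads.

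The members and gene lists were chosen with earlier results of these data known. Named were all SLRPs and other leucine-rich matrix genes, Cd82, Gapdh, the 2 most abundant and the 3 lowest and 3 highest genes past 2-fold of each pathway list, the 3 most abundant of each marker list, the 5 genes nearest to Bgn and Fmod, and the genes beside each cluster. The Y-linked genes, Cenpp, Egfr, Met, Bmp1, Cd34, Tlr4 and Xylt2 were named after their values were seen. So were Sp7, Myh11, Mcam, the low mural and macrophage markers and other genes that filter or scaling moved across 2-fold. Positions came from GENCODE M1 on NCBI37. The cysteine clusters were found by translating its transcripts, and the coding bases were checked against the genome. Alternatives were a pseudocount of 1 or 0.01, 4 scalings (median ratio, upper quartile, equal sum, Gapdh), no filter or a mean of 5 or more, and the highest row of a repeated symbol. The fold calls were checked on simulated data with counting error only, where the changed genes had an RPKM of 5 or more and changes well past 2-fold. Calls near 2-fold or near the filter, and spread between cultures, were not checked. Tools were Python 3.11.15, numpy 2.4.6, pandas 2.3.3, scipy 1.17.1 and matplotlib 3.10.9.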

Additional observations from a re-analysis of the deposited data

How the results depend on the processing

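The ratios of the 6 SLRPs above 0 in both libraries were recomputed 42 times and kept their sign in all 42. In 4 of these they crossed 2-fold: Bgn with both libraries scaled to equal sum or to Gapdh, and Omd and Ogn with 1 RPKM added. The pseudocount moved the low members most, Ogn to -0.90 or -5.12 and Omd to 0.86 or 1.66. Scaling moved the median log2 ratio of all genes kept from 0.08 to 0.00 (median), -0.04 (upper quartile), -0.39 (equal sum) or -0.41 (Gapdh). In that order, the log2 ratio was -0.75, -0.80, -1.15 and -1.17 for Bgn and -2.54, -2.59, -2.94 and -2.96 for Prelp. With equal sum and Gapdh it was -0.87 and -0.88 for Dcn and -3.24 and -3.26 for Fmod, and 3 SLRPs were more than 2-fold lower. With 1 RPKM added it was -2.56 for Fmod. The number of SLRPs more than 2-fold higher was 0 with 1 RPKM added and 0 where the mean RPKM was 5 or more, since Omd is then not past 2-fold or not kept. Of all genes, 1816 were lower and 286 higher with equal sum, 1856 and 278 with Gapdh, 1878 and 1205 without the filter, and 350 and 511 where the mean RPKM was 5 or more. The median log2 ratio of the macrophage markers turned from -1.57 to 0.11 where the mean RPKM was 5 or more, where fewer genes were kept. Of 288 recomputed counts of the gene lists 36 moved by over 1.5 times, and of 134 recomputed medians 59 moved. Depth limits Lum, Aspn, Kera and Epyc, whose values are at most a few reads. No paired analysis was possible because there was 1 library of each genotype.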

Other observations

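Some genes of the SLRP pathway stood below the filter on mean RPKM and still differed by many estimated reads. They were picked after their values were seen. Mmp13, a collagenase that also cuts fibromodulin, stood at RPKM values of 1.83 in WT and 0.0151 in Kai1-/- PCs, about 133 reads and 1.0 read. The fold of Kai1-/- over WT was 0.0083, with a counting interval from 0.0002 to 0.0471. Xylt1, which adds the xylose that starts the glycosaminoglycan chain, had values of 0.412 and 0.104, about 36.3 and 8.3 reads, whereas its relative Xylt2 stood at 11.1 and 9.70. Tlr2, a receptor of free biglycan, had values of 0.700 and 0.197, about 58.0 and 14.8 reads. Tlr4, the other such receptor, had 1.02 and 0.605, about 116 and 62.6 reads. These genes have no replicate check either.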
